A study of Mus musculus with 13 samples.

Results

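Vascular endothelium was followed through 10 genes in RNA from mouse melanoma grown in the lung. The 10 genes were Pecam1, Cdh5, Esam, Cldn5, Kdr, Tie1, Calcrl, Ramp2, Slco2a1 and Egfl7, out of 22656 genes in the table and 12403 genes with enough signal to be tested. Of these, 7 were taken as familiar endothelial markers, and Slco2a1, Calcrl and Esam were picked because their values differed between the genotypes. The levels of those 3 are therefore a description and carry no test. The other 7 were also chosen with earlier results of these data known. Libraries came from B16F10-TR-shApoe cells, a derivative of the B16F10 mouse melanoma line in which a short hairpin targets Apoe, taken from lungs of APOE2 knock-in mice (8 libraries) or APOE3 knock-in mice (5 libraries). Both groups received the same 100000 cells into the tail vein, so the hairpin is shared by every library, and lungs were collected on day 15. After collagenase digestion, cells low for the dead-cell dye TO-PRO-3, negative for the leukocyte antigen CD45 and positive for GFP were sorted, a gate that uses no endothelial antigen. The labels give no age or sex for the mice. All tumours came from 1 cell line, and no lung without tumour and no cultured tumour cells were analysed here.

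Endothelial cells line blood and lymph vessels and join through adherens and tight junctions that set how much passes through the wall. They respond to vascular endothelial growth factors through receptor tyrosine kinases and to adrenomedullin through a receptor with an accessory protein. Lung endothelium is rich in capillaries wrapped around the alveoli and also takes up prostaglandins from the blood. These genes are widely used as markers of endothelium because most other lung cells express little of them.

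The genes lie on 7 chromosomes, given here with GRCm38 coordinates from GENCODE M21. Among the junction genes, Pecam1 (ENSMUSG00000020717) spans chr11:106654217-106750628 on the minus strand. Cdh5 (ENSMUSG00000031871) spans chr8:104101625-104144511 on the plus strand, Esam (ENSMUSG00000001946) chr9:37528078-37538319 on the plus strand, and Cldn5 (ENSMUSG00000041378) chr16:18776847-18778262 on the plus strand. The kinase receptor genes are on the minus strand, Kdr (ENSMUSG00000062960) at chr5:75932827-75978458 and Tie1 (ENSMUSG00000033191) at chr4:118471191-118490061. Calcrl (ENSMUSG00000059588) is at chr2:84330626-84425411 on the minus strand and Ramp2 (ENSMUSG00000001240) at chr11:101246028-101259546 on the plus strand. Slco2a1 (ENSMUSG00000032548) is at chr9:102988712-103096002 and Egfl7 (ENSMUSG00000026921) at chr2:26580014-26593120, both on the plus strand. Reads come from the transcript end next to the poly(A) tail, so neighbours that share that end matter. A Ramp2 transcript shares exon sequence with Vps25 on the same strand, and Vps25 exons lie at the end of Ramp2. Vps25 was counted at 3.64 ± 2.70 normalised counts in APOE2 hosts (SD, n = 8) and 5.55 ± 2.47 in APOE3 hosts (SD, n = 5). Reads from a shared stretch cannot be assigned to either gene, so these counts do not show how abundant Vps25 RNA was. The end of Egfl7 overlaps Agpat2 on the opposite strand, and Agpat2 had a log2 fold change of 0.08 (limma adjusted p = 0.920). Egfl7 also shares exon sequence with Gm20532 and hosts Mir126a, with Mir126b opposite, and n-R5s89 lies within Slco2a1 on the other strand. The strand setting of the counting is not given in the sources used here, so overlapping reads could not be assigned.

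RefSeq promoter windows (GRCm38.p6) matched 6 of the 10 genes, Egfl7, Calcrl, Tie1, Kdr, Slco2a1 and Cldn5, in 8 windows. Pecam1, Cdh5, Ramp2 and Esam had no entry. Upstream sequences of 3 members are printed because all 3 genes had lower mean counts in APOE2 while their promoters differ in the core letters recognised by ETS factors, a family known for its role in endothelial gene expression. Capitals mark GGAA on either strand (TTCC on the strand shown), and bases that belong to annotated exons are left out. Upstream refers to the RefSeq start of each window. The Egfl7 and Slco2a1 windows lie inside the GENCODE gene spans given above, and those of Calcrl and Tie1 partly so. The Egfl7 sequence is chr2:26580833-26581055 on the plus strand, that of Kdr chr5:75978459-75978705 on the minus strand, and that of Cldn5 chr16:18776597-18776846 on the plus strand.
Egfl7: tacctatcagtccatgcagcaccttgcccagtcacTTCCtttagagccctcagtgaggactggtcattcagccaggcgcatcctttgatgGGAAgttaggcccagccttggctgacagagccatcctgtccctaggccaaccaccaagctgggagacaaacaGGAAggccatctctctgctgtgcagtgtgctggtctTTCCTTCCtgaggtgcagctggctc
Kdr: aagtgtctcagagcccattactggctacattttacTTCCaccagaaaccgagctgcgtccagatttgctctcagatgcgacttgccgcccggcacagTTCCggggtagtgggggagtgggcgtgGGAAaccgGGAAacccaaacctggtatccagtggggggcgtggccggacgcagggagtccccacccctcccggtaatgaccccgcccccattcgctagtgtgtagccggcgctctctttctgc
Cldn5: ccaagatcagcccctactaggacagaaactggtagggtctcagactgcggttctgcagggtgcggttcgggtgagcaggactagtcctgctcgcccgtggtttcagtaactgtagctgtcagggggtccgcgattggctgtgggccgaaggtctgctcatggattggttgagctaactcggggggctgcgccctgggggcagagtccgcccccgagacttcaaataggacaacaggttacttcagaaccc

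The Egfl7 sequence held 5 matches to GGAA, that of Kdr 4 and that of Cldn5 0. Over the 250 upstream bases of each window, Calcrl had 3 matches, Tie1 7 and Slco2a1 2, and the other Egfl7 windows had 3 and 1. GGAA was present in 93.4% of the 32851 promoter windows in the table, with a median of 3 matches, so its presence does not set the members apart. A longer ETS site, CCGGAAGT, was found in 0 of the 8 windows and in 2.88% of all windows. The letters AGATAA, read by GATA factors, were found in 0 of the 8 windows and in 9.99% of all. The SOX motif AACAAT was found in the Calcrl window and in 9.42% of all. A composite of a forkhead and an ETS site, AACAGGAA, which contains GGAA, was found in 1 Egfl7 window and in the Calcrl window, against 2.25% of all windows. All motifs were searched on both strands. Capitals mark the composite in the runs below, chr2:26580983-26581006 on the plus strand for Egfl7 and chr2:84425320-84425343 on the minus strand for Calcrl. Both runs lie inside the GENCODE spans of their genes, and exon bases were not left out of the Calcrl run.
Egfl7 composite: gggagacaAACAGGAAggccatct
Calcrl composite: ggtgatgtAACAGGAAgctgtgat

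In every one of the 10 genes the mean over APOE2 libraries was below the mean over APOE3 libraries. Reads of 9 of the 10 were present in all 13 libraries, the exception being Tie1. Values are the authors' normalised counts, which are reads divided by a size factor for each library, and fold changes are APOE2 minus APOE3 on the log2(value + 1) scale. Differences between the genotypes were tested with limma over all 12403 genes, with Benjamini-Hochberg adjustment and a threshold of 0.05. In bulk RNA, fewer endothelial cells and less RNA of these genes in each cell cannot be told apart, nor can the libraries show which cells the reads came from.

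Pecam1 encodes the adhesion molecule CD31, which sits at contacts between endothelial cells. In APOE2 libraries it ranged from 7.77 to 54.9 normalised counts, with a median of 22.3. In APOE3 libraries it had 31.6, 72.3, 84.3, 144.0 and 71.7 in replicates 1 to 5. The groups overlapped through APOE3 replicate 1 alone, which lay below the 3 highest APOE2 libraries. The means were 29.9 ± 18.5 (SD, n = 8) and 80.8 ± 40.6 (SD, n = 5), with a log2 fold change of −1.52 ± 0.48 (SE) that did not pass (limma adjusted p = 0.143).

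Cdh5 encodes VE-cadherin, the cadherin of endothelial adherens junctions. Its APOE2 values lay between 10.2 and 48.7 (median 20.9), and its APOE3 values were 16.9, 20.3, 106.1, 153.4 and 120.3. APOE3 replicates 1 and 2 lay among the APOE2 libraries, whereas the other 3 were above all of them. The means were 23.7 ± 13.2 (SD, n = 8) and 83.4 ± 61.6 (SD, n = 5), the log2 fold change was −1.45 ± 0.55 (SE), and the limma adjusted p was 0.223.

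Cldn5 encodes claudin-5, the main tight junction claudin of endothelium. Its APOE2 values lay between 8.86 and 48.5 (median 21.8), and its APOE3 values were 17.9, 71.2, 98.9, 93.2 and 128.4. Again APOE3 replicate 1 lay within the APOE2 range and the other 4 above it. The means were 23.4 ± 12.5 (SD, n = 8) and 81.9 ± 41.2 (SD, n = 5), and the log2 fold change was −1.68 ± 0.49 (SE; limma adjusted p = 0.108). Without APOE3 replicate 1 the log2 fold change was −2.15 and the limma adjusted p 0.0182. With any 1 library left out, the log2 fold change reached at weakest −1.46 (without APOE3 replicate 5) and the limma adjusted p at most 0.227.

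Esam encodes an immunoglobulin-like adhesion molecule of tight junctions, also found on platelets. Its APOE2 values lay between 10.2 and 35.9 (median 26.04), and its APOE3 values were 57.9, 59.9, 63.5, 166.6 and 129.6. All 8 APOE2 libraries lay below all 5 APOE3 libraries, a pattern that helped to choose the gene. The means were 24.2 ± 8.44 (SD, n = 8) and 95.5 ± 49.8 (SD, n = 5), a log2 fold change of −1.88 ± 0.40 (SE).

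**Figure D1:**
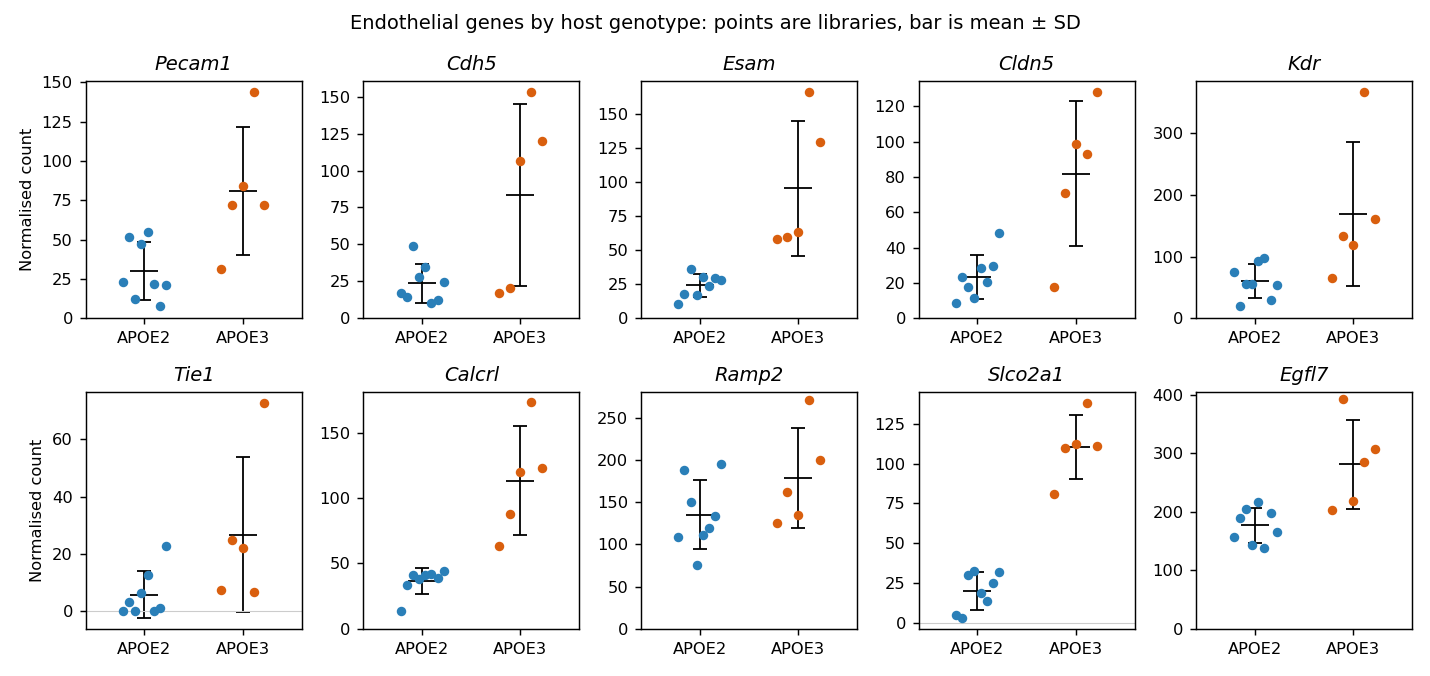
Normalised counts (vertical axis, a linear scale for each gene) of the 10 endothelial genes in 8 APOE2 and 5 APOE3 libraries. Each point is 1 library, in replicate order from left to right within a group, and the bars give the mean ± SD. Groups are separate in Esam, Calcrl and Slco2a1 and overlap in the other 7 genes, each time with APOE3 replicate 1, the leftmost orange point, inside the APOE2 range.

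Among the receptors, Kdr encodes VEGFR2, the main signalling receptor for VEGF-A. Its APOE2 values lay between 19.2 and 97.1 (median 55.2), and its APOE3 values were 65.3, 133.3, 118.6, 367.1 and 160.8. Here too APOE3 replicate 1 fell inside the APOE2 range, and APOE3 replicate 4 stood far above every other library. The means were 59.9 ± 27.6 (SD, n = 8) and 169 ± 116 (SD, n = 5), and the log2 fold change was −1.41 ± 0.39 (SE; limma adjusted p = 0.0966). Kdr passed in edgeR on recovered reads (adjusted p = 0.0467), in DESeq2 on the same reads (adjusted p = 0.0102) and in limma without APOE3 replicate 1 (adjusted p = 0.0282). With 1 library left out in turn, its limma adjusted p reached at most 0.245.

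Tie1 encodes an orphan receptor tyrosine kinase that partners the angiopoietin receptor Tek. It was the one member with libraries at 0, namely APOE2 replicates 1, 3 and 6, where 3 reads would correspond to at most 3.39 normalised counts. The remaining APOE2 libraries had up to 22.9 normalised counts, and the APOE3 libraries had 7.37, 24.9, 21.9, 6.59 and 72.9. APOE3 replicates 1, 3 and 4 lay within the APOE2 range. The means were 5.70 ± 8.21 (SD, n = 8) and 26.7 ± 27.1 (SD, n = 5), so the gene passed the filter on low values only through its APOE3 libraries. Its log2 fold change of −2.52 ± 1.00 (SE) did not pass (limma adjusted p = 0.254) and shrank to −1.50 with a pseudocount of 5. Without APOE3 replicate 5 the gene fell under the filter and was not tested.

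Calcrl encodes the seven-transmembrane receptor that binds adrenomedullin or CGRP, depending on its partner protein. Its APOE2 values lay between 13.6 and 43.9 (median 40.01), and 7 of the 8 libraries lay between 33.3 and 43.9. In APOE3 it had 63.2, 88.1, 119.7, 173.2 and 122.6, all above every APOE2 library. The means were 36.5 ± 9.78 (SD, n = 8) and 113.4 ± 41.4 (SD, n = 5), a log2 fold change of −1.60 ± 0.35 (SE).

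Ramp2 encodes the partner that makes the Calcrl protein an adrenomedullin receptor. Its values overlapped broadly, with 75.7 to 194.9 and a median of 127 in APOE2 and 125.4, 162.7, 135.3, 271.1 and 200.2 in APOE3. Only APOE3 replicates 4 and 5 exceeded the highest APOE2 library. The means were 135 ± 40.9 (SD, n = 8) and 179 ± 59.1 (SD, n = 5), and the log2 fold change was −0.40 ± 0.25 (SE; limma adjusted p = 0.478). The fold change of Ramp2 was the weakest of the 10 in log2 size, while that of its receptor partner Calcrl was −1.60. The difference between those changes was not tested, nor was any effect of the sequence shared with Vps25 on the Ramp2 counts.

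Slco2a1 encodes the prostaglandin transporter. Its APOE2 values lay between 3.03 and 32.8 (median 22.02), and its APOE3 values were 81.1, 109.6, 112.4, 138.4 and 111.1. The gap between the groups was the widest of the members, with the lowest APOE3 library above the highest APOE2 library (81.1 against 32.8 normalised counts). The means were 20.1 ± 12.0 (SD, n = 8) and 110.5 ± 20.3 (SD, n = 5), a log2 fold change of −2.72 ± 0.51 (SE) that ranged from −2.86 to −2.42 with 1 library left out in turn.

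Egfl7 encodes a secreted matrix protein of vessels. Its APOE2 values lay between 138 and 216 (median 177), and its APOE3 values were 203.3, 392.1, 217.5, 284.3 and 306.6. APOE3 replicate 1 lay within the APOE2 range and APOE3 replicate 3 exceeded its highest value by under 2 normalised counts. The means were 177 ± 29.7 (SD, n = 8) and 281 ± 75.9 (SD, n = 5), and the log2 fold change was −0.64 ± 0.19 (SE; limma adjusted p = 0.121). The relative spread of Egfl7, 16.8% among APOE2 libraries, was the smallest of the 10, beside 7.26% from counting alone.

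Of the 10 members, 3 were past the threshold and lower in APOE2, Calcrl, Esam and Slco2a1, against 0.379% of all tested genes past it in that direction. The same 3 had groups that did not overlap, and 0.508% of tested genes had all APOE2 values below all APOE3 values. Those 3 were picked on this contrast, which fixed both counts, so nothing is read from either share. Of the other 7, 0 passed in limma and 6 had an unadjusted p under 0.05 and lower values in APOE2, beside 6.71% of all tested genes. Tie1, one of the 6, passed the filter only through its APOE3 libraries. For those 7, edgeR called Kdr alone, and DESeq2 called Kdr, Cldn5, Cdh5 and Egfl7, with adjusted p from 0.00823 to 0.0356. Lower in APOE2 were 0.621% of genes in edgeR and 1.27% in DESeq2. With 1 library left out in turn, 0 of the 7 passed in limma, except without APOE3 replicate 1, when Kdr and Cldn5 did, and between 4 and 6 had an unadjusted p under 0.05. With the 3 picked genes included, the count of members past the threshold was 0 without APOE3 replicate 3. It was 1 (Slco2a1) without APOE3 replicate 4, APOE3 replicate 5 or APOE2 replicate 2, and 5 without APOE3 replicate 1. The median log2 fold change was −1.45 over the 7 genes not picked for their pattern and −1.56 over all 10. Over all tested genes it was 0.00037, with quartiles of −0.21 and 0.22. The counts for the 7 genes and these medians are a description, since the members were chosen with this contrast known.

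**Figure D2:**
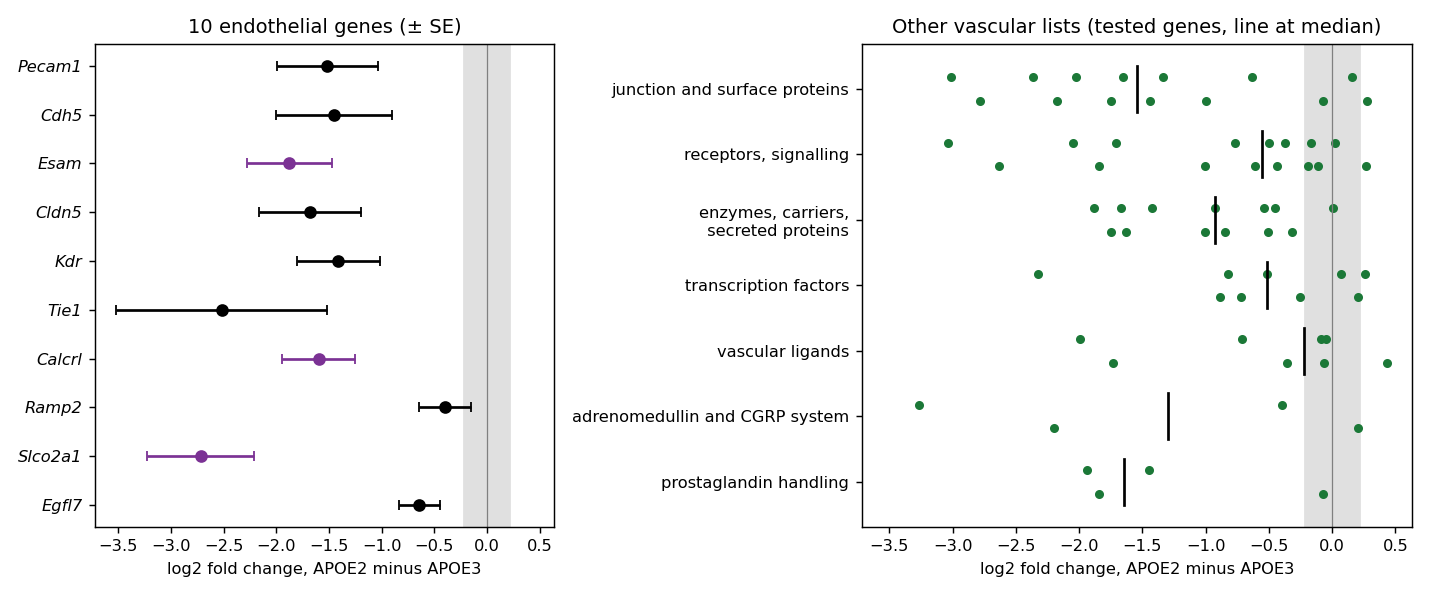
Log2 fold change, APOE2 minus APOE3, of the 10 endothelial genes with its SE (left; purple marks the 3 genes picked for their pattern) and of other vascular genes by list (right; each point is a tested gene, the black line the list's median). The grey band spans the quartiles of all tested genes, −0.21 to 0.22, and all 10 members lie to the left of 0, from −2.72 for Slco2a1 to −0.40 for Ramp2.

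Libraries differed in how much of this signal they held. Summed over the 10 genes, APOE2 libraries held 62.7 ± 9.61 of every 1000000 normalised counts (SD, n = 8), a unit abbreviated CPM, ranging from 47.2 to 74.3 CPM. APOE3 libraries held 147 ± 50.8 (SD, n = 5), with 82.2, 130.5, 132.0, 217.0 and 173.9 in replicates 1 to 5. Egfl7 and Ramp2 had the highest means of the members in both genotypes and the smallest log2 fold changes in size. These sums therefore weigh those genes most. APOE3 replicate 4 had the highest value of all 13 libraries in 7 of the 10 genes, APOE3 replicate 5 in Tie1 and Cldn5, and APOE3 replicate 2 in Egfl7. APOE3 replicate 1 was at or below the highest APOE2 library in 7 genes and was the APOE3 library closest to the APOE2 group. At the other end, APOE2 replicate 1, the most deeply sequenced library, had the lowest value in Calcrl, Esam and Cldn5 and shared the value of 0 in Tie1 with APOE2 replicates 3 and 6. In all 10 members and both genotypes the relative spread among libraries exceeded that from counting alone. For Pecam1 in APOE2 the relative spread was 61.9%, beside 17.997% from counting alone, and for Kdr in APOE3 it was 68.7% beside 7.79%. In Calcrl the APOE2 spread was 26.8% beside 16.2%.

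The members also moved together across libraries. Over the 13 libraries, all 45 pairs of members had a positive Pearson correlation of log2 values, with a median of 0.65 and a range from 0.32 to 0.95, a description that includes the difference between genotypes. After each genotype's mean was removed, 42 of the 45 pairs remained positive, with a median of 0.31 and a range from −0.21 (Pecam1 with Slco2a1) to 0.84 (Calcrl with Esam). Within genotypes, 11 pairs exceeded 0.5. Calcrl, Cldn5, Esam and Cdh5 followed the mean of the other 9 members most closely, with within-genotype correlations of 0.79, 0.77, 0.76 and 0.65. Pecam1, at 0.28, followed it least. Ramp2 had 0.44 by this measure despite its small difference between genotypes. The mean of the members had a within-genotype correlation of −0.24 with the log2 read total of the library. All values of a library share its cells, its sort and its sequencing depth.

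**Figure D3:**
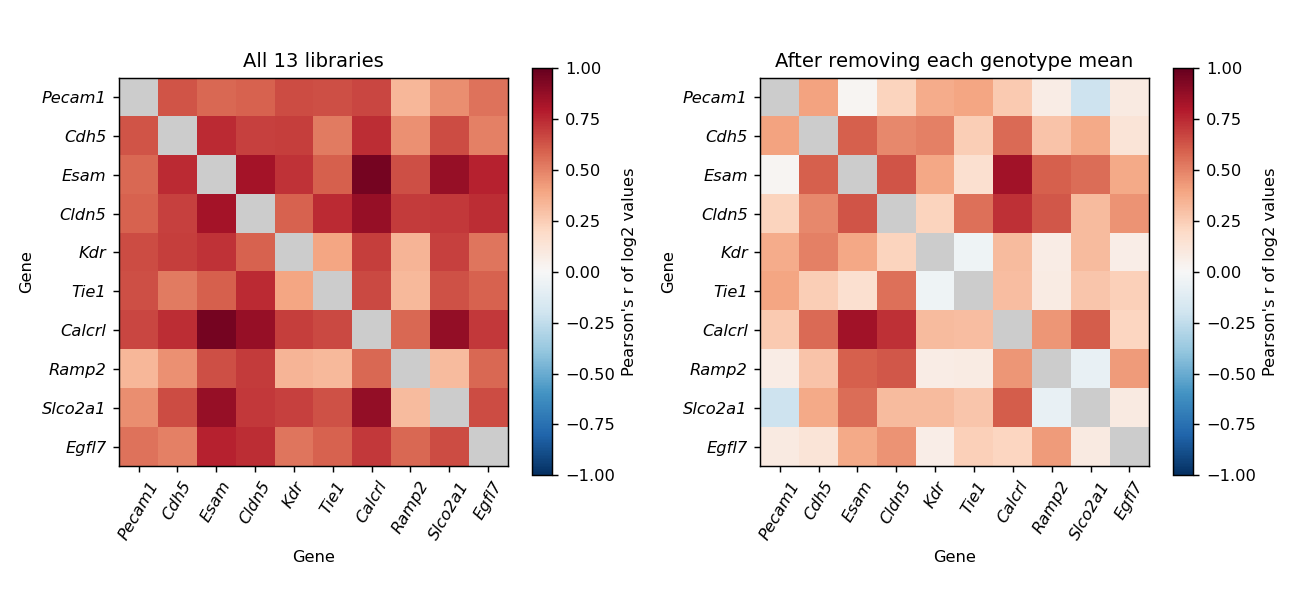
Pearson correlation of log2 normalised counts between each pair of the 10 genes over 13 libraries (left) and after each genotype mean is removed (right), on a colour scale from −1 to 1. All pairs are positive on the left (0.32 to 0.95), and on the right the pair of Calcrl and Esam is highest at 0.84 while 3 pairs lie below 0.

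Of 11220 genes outside the members whose mean reached 20 normalised counts, the 8 most like the members' mean within genotypes were Tlnrd1 (r = 0.88), Dhrs3 (0.88), Mks1 (0.86), Ptprb (0.83), Zdhhc2 (0.82), Gm37968 (0.81), Slc35b1 (0.80) and Anapc15 (0.79), each over 13 libraries. Only Ptprb of these was in a vascular list. Their fold changes did not share a direction, with a log2 fold change of −1.44 for Ptprb, −0.69 for Dhrs3 and 0.56 for Zdhhc2. With the genotype difference left in, the 8 most alike were Dhrs3 (0.90), Ptprb (0.89), Cldn3 (0.89), Bgn (0.89), Mllt6 (0.87), Trerf1 (0.86), Zfp956 (0.85) and Podxl (0.85). Dhrs3 and Ptprb were the 2 genes in both sets. Dhrs3 encodes a retinaldehyde reductase and had 75.8 ± 10.1 normalised counts in APOE2 hosts (SD, n = 8) and 132 ± 54.7 in APOE3 hosts (SD, n = 5). Ptprb encodes the endothelial phosphatase VE-PTP and had 31.2 ± 15.4 (SD, n = 8) and 86.6 ± 43.6 (SD, n = 5).

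A wider set held 85 other endothelial genes, of which 84 were in the table and 61 had enough signal. Past the limma threshold, 3 were lower in APOE2 and 0 higher, beside 0.379% of all tested genes past it and lower. At an unadjusted p under 0.05, 29 were lower and 1 higher, beside 6.71% of all tested genes lower and 7.51% higher. These shares are a description, since the lists were chosen with earlier results of these data known. Of the 61, 48 had a negative log2 fold change, beside 49.9% of all tested genes, and the median was −0.72. In 8 of the 61 the APOE2 mean was under the filter of 10. The 3 genes past the threshold were Podxl, Adgrf5 and Aqp1. Podxl, which encodes the sialomucin podocalyxin, had 41.1 ± 11.6 normalised counts in APOE2 hosts (SD, n = 8) and 142 ± 76.5 in APOE3 hosts (SD, n = 5), and its log2 fold change was −1.65 ± 0.34 (SE; limma adjusted p = 0.0259). Its groups did not overlap, with a highest APOE2 value of 58.6 and a lowest APOE3 value of 70.1. All APOE2 values lay below all APOE3 values in 2 of the 61 genes, beside 0.508% of all tested genes, also a description. Adgrf5 encodes an adhesion receptor of lung endothelium and alveolar type 2 cells. It had 53.5 ± 27.7 (SD) against 191 ± 91.8 (SD), and its log2 fold change was −1.75 ± 0.42 (SE; limma adjusted p = 0.0451). Aqp1, the water channel of capillaries, had 74.5 ± 42.2 (SD) against 232 ± 124 (SD), and its log2 fold change was −1.67 ± 0.40 (SE; limma adjusted p = 0.0438). With 1 library left out in turn, Podxl passed in 9 of 13 fits, Aqp1 in 3 and Adgrf5 in 2. The count of 3 was 0 without APOE2 replicate 2 or without APOE3 replicate 3, 4 or 5, and 9 without APOE3 replicate 1. It was 1 (Podxl) without APOE2 replicate 1, 3, 5, 7 or 8, and 5 without APOE2 replicate 4.

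By role, the junction and surface list had 14 of 16 genes tested, with 2 past the threshold and lower, Podxl and Adgrf5, and a median log2 fold change of −1.55. At an unadjusted p under 0.05, 9 were lower, and edgeR called 3 and DESeq2 7. The limma count ran from 0 (without APOE2 replicate 2 or APOE3 replicate 3, 4 or 5) to 4 (without APOE3 replicate 1). Its most abundant genes did not follow that median. Mcam, an adhesion molecule that melanoma cells also express, had 742 ± 321 normalised counts in APOE2 hosts (SD, n = 8) and 769 ± 280 in APOE3 hosts (SD, n = 5) (log2 fold change −0.07, limma adjusted p = 0.930), and Jam3, a junction protein, had a log2 fold change of 0.28 (limma adjusted p = 0.576). Cd93, a lectin-like receptor of endothelium, had 83.5 ± 42.3 (SD) against 227 ± 144 (SD), and its log2 fold change was −1.34 ± 0.37 (SE; limma adjusted p = 0.0925). The gene passed in edgeR and in DESeq2.

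The receptor list had 16 of 19 genes tested and 0 past the limma threshold, with 7 lower and 1 higher at an unadjusted p under 0.05, 0 in edgeR and 1 in DESeq2. Its median log2 fold change was −0.55. Nrp2, a co-receptor for VEGF and semaphorins, had 4200 ± 680.4 normalised counts in APOE2 hosts (SD, n = 8) and 3475 ± 573 in APOE3 hosts (SD, n = 5), and its log2 fold change was 0.27 ± 0.12 (SE; limma adjusted p = 0.325). For the BMP receptor genes Bmpr2 and Acvrl1 the log2 fold changes were −0.11 and −0.37, with limma adjusted p of 0.747 and 0.349.

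The list of enzymes, carriers and secreted proteins had 13 of 14 genes tested, 1 past the threshold (Aqp1) and a median log2 fold change of −0.93. The caveolar coat genes Cavin1 and Cav2 had log2 fold changes of −0.51 and −0.54, with limma adjusted p of 0.212 and 0.179, whereas Cavin2 had 0.01 (limma adjusted p = 0.993). Among transcription factors, 9 of 17 were tested and 0 passed in limma, with 4 lower at an unadjusted p under 0.05, 0 in edgeR and 1 in DESeq2. Epas1, which encodes the hypoxia-inducible factor HIF-2 alpha, had a log2 fold change of −0.82 ± 0.29 (SE), with 192 ± 51.6 (SD, n = 8) against 385 ± 223 (SD, n = 5) normalised counts and a limma adjusted p of 0.193. Ets1 and the lymphatic regulator Prox1 had log2 fold changes of 0.07 and 0.20, with limma adjusted p of 0.890 and 0.621.

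Ligands of the vessel wall gave no call. Of 10, 8 were tested and 0 passed in limma, edgeR or DESeq2, with 2 lower in limma at an unadjusted p under 0.05, and the median log2 fold change was −0.22. In 1 of the 8 the APOE2 mean was under the filter of 10. Vegfa, the ligand of the Kdr protein, had 270 ± 81.2 normalised counts in APOE2 hosts (SD, n = 8) and 342 ± 88.4 in APOE3 hosts (SD, n = 5), and its log2 fold change was −0.36 ± 0.20 (SE; limma adjusted p = 0.434). Vegfb and Angpt2 had log2 fold changes of −0.08 and −0.07. For the adrenomedullin and CGRP system, 7 of 9 genes were in the table and 4 were tested, with 0 past the limma threshold, 2 lower at an unadjusted p under 0.05, 0 in edgeR and 1 in DESeq2. In 2 of the 4 tested genes, Ackr3 among them, the APOE2 mean was under the filter of 10. Those 2 passed the filter only through their APOE3 libraries. Adm, which encodes adrenomedullin, had 225 ± 119 (SD) against 381 ± 290 (SD), with a limma adjusted p of 0.741. Crcp had a log2 fold change of 0.21, and Ackr3, a decoy receptor that also binds adrenomedullin, had 8.09 ± 11.8 (SD) against 20.1 ± 16.3 (SD), with a limma adjusted p of 0.344.

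Around the transporter Slco2a1, 4 of 11 prostaglandin genes were tested and 0 passed in limma, edgeR or DESeq2, with 1 lower in limma at an unadjusted p under 0.05. Hpgd, the dehydrogenase that inactivates prostaglandins after uptake, had 12.1 ± 6.02 normalised counts in APOE2 hosts (SD, n = 8) and 35.2 ± 17.4 in APOE3 hosts (SD, n = 5), and its log2 fold change was −1.45 ± 0.54 (SE; limma adjusted p = 0.220). The exporter gene Abcc4 had a log2 fold change of −0.07 (limma adjusted p = 0.923), and the cyclooxygenase gene Ptgs1 one of −1.94 ± 0.96 (SE) (limma adjusted p = 0.361).

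Lists of endothelial subtypes held few tested genes, and 0 genes of any of the 5 lists passed in limma. General capillary markers summed to 21.2 ± 10.4 CPM in APOE2 hosts (SD, n = 8) and 49.0 ± 27.0 CPM in APOE3 hosts (SD, n = 5), with 5 of 6 genes tested, 3 lower at an unadjusted p under 0.05, and 1 past the threshold in edgeR and in DESeq2. Aerocyte markers, for the thin alveolar capillary cell, summed to 151 ± 15.7 (SD) and 159 ± 20.6 (SD), most of it Tbx2, which melanocytes also express and which had a log2 fold change of 0.04. Ednrb, another of the abundant aerocyte genes, had 10.8 ± 14.8 (SD) against 35.05 ± 13.1 (SD) normalised counts (limma adjusted p = 0.160). Arterial markers summed to 3.54 ± 1.84 (SD) and 7.53 ± 4.24 (SD), venous markers to 32.9 ± 3.63 (SD) and 51.2 ± 18.03 (SD), and lymphatic markers to 41.0 ± 7.54 (SD) and 39.2 ± 2.996 (SD). Most of the lymphatic sum came from Prox1. At an unadjusted p under 0.05, 1 aerocyte gene and 2 venous genes were lower, and edgeR and DESeq2 called 0 in these 4 lists.

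Markers of other lung cells differed between the same groups. The 8 alveolar type 2 genes summed to 93.5 to 488 CPM in APOE2 and 427 to 2550 in APOE3. Of the 8, 6 passed and were lower in APOE2, and between 3 (without APOE3 replicate 3) and 7 (without APOE3 replicate 1) passed with 1 library left out. The mean of their log2 values, each gene scaled to its within-genotype spread, had a within-genotype correlation of 0.08 with the members' mean. Over the lists of other cells the same measure ran from −0.36 (leukocytes) to 0.55 (platelets, 1 tested gene). It was 0.49 for pericytes, 0.42 for alveolar type 1 cells, 0.28 for fibroblasts and −0.21 for heart muscle. For the other endothelial genes it was 0.66. No correlation was computed for the sums. Fibroblast markers summed to 12.4 to 56.1 in APOE2 and 32.2 to 236 in APOE3, with 0 of 6 tested genes past the limma threshold, 4 lower at an unadjusted p under 0.05 and 1 past it in edgeR and in DESeq2. Heart muscle markers of the pulmonary vein summed to 4.73 to 35.5 and 33.0 to 80.2, with Myl7 past the threshold of 7 tested. All 7 had a negative log2 fold change and 5 were lower at an unadjusted p under 0.05, while edgeR called 0 and DESeq2 1. In 1 of these 7 genes, and in 1 of the 6 fibroblast genes, the APOE2 mean was under the filter of 10. Smooth muscle markers summed to 3.53 to 16.1 and 13.8 to 38.4, with Acta2 past the limma threshold of 3 tested. Leukocyte markers summed to 52.6 to 294 and 243 to 1490, with Lyz2 and Cd74 past it of 7 tested. Most of the leukocyte sum was Lyz2, which alveolar type 2 cells also express, as they do Cd74, and the sort took CD45-negative cells. S100a8, a neutrophil gene, had 122 ± 61.9 normalised counts in APOE2 hosts (SD, n = 8) and 118 ± 54.2 in APOE3 hosts (SD, n = 5). Acta2, Lyz2 and Cd74 did not pass without APOE3 replicate 3 or without APOE3 replicate 4, and Myl7 passed only without APOE2 replicate 4 or 8 when 1 library was left out. The leukocyte count of 2 also fell without APOE2 replicate 7 or without APOE3 replicate 5. Alveolar type 1 markers summed to 39.2 to 59.9 and 56.1 to 92.8, and mesothelial markers to 0.43 to 9.37 and 4.52 to 28.2. All 5 tested type 1 genes had a negative log2 fold change, with 0 past the limma threshold and 2 lower at an unadjusted p under 0.05. Of the 2 mesothelial genes tested, 0 were at either level. Pericyte markers summed to 5.00 to 15.6 and 4.16 to 17.7, airway markers to 1.40 to 154.5 and 2.71 to 18.4, platelet markers to 1.18 to 6.45 and 0.706 to 9.66, and erythroid markers to 4.80 to 22.04 and 2.84 to 26.8, with 0 genes of these 4 lists past the threshold or at an unadjusted p under 0.05. No marker in the table was at 0 in all libraries. Melanocyte genes summed to 36139 to 52014 CPM in APOE2 against 26927 to 38474 in APOE3, most of it Dct. Of the 9 melanocyte genes, 6 had a positive and 3 a negative log2 fold change, with a median of 0.07. In limma 0 passed and 1 was higher at an unadjusted p under 0.05, and edgeR and DESeq2 each called 1. The log2 ratio of the members' sum to the alveolar type 2 sum was −2.02 ± 1.03 in APOE2 hosts (SD, n = 8) and −3.08 ± 0.51 in APOE3 hosts (SD, n = 5). The part of these other cell types in the endothelial values was not tested.

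**Figure D4:**
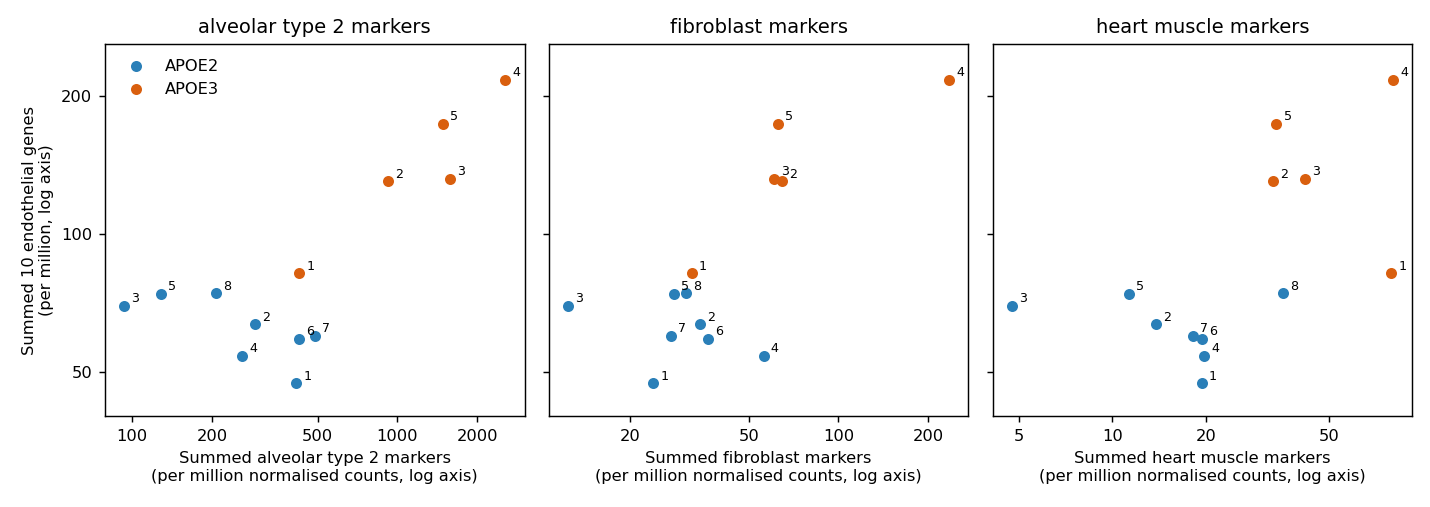
Summed normalised counts of the 10 endothelial genes (vertical axis, CPM, log scale) against summed alveolar type 2, fibroblast and heart muscle markers (horizontal axes, CPM, log scale). Each point is 1 library labelled with its replicate number, and the members' sum lies between 47.2 and 74.3 in APOE2 and between 82.2 and 217.0 in APOE3.

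Read totals recovered from the table ran from 7080308 to 13039989 in the 13 libraries, and 14026 to 17018 genes had reads. Over all genes, 98 of 12403 were past the limma threshold (0.79%), 51 higher and 47 lower in APOE2. With equal library totals instead of size factors the split was 38 higher and 54 lower.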

How the data were processed

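RNA of sorted lung tumour cells was read in 13 libraries made with a kit for the 3' ends of transcripts. The values are a signal for each gene in 1 deposited table, namely reads that the authors divided by a size factor per library, as the steps between the deposited values show. STAR 2.6.0, featureCounts, DESeq2 1.28.1 and the build mm10 are named in the submitters' processing notes. Gene symbols and coordinates came from GENCODE M21, where 22649 of 22656 identifiers matched. Within each column 100% of nonzero values were whole multiples of 1 step (tolerance 0.01), which gave reads for the count tests, and edgeR called 138 genes on them.

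Genes with a mean of at least 10 were tested with limma 3.58.1 in R 4.3.3 (intensity trend, two-sided, log2(value + 1), Benjamini-Hochberg over 12403 genes), after the steps were tested on simulated data. The pseudocount weighs most on the fold changes of low genes. Groups came from the genotype labels, and the series text counts 8 and 5 mice. The samples' smallest pairwise chi-square per degree of freedom was 12.9, so none was counted as a duplicate. Alternatives were edgeR 4.0.16, DESeq2 1.42.0, other pseudocounts, filters, scalings and variance models, the replicate number as a block, and each library left out. Outside the members, the genes named were those past the threshold and the 3 with the highest mean in each list, and the 8 most like the members' mean. Members and lists were chosen with earlier results of these data known.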

Additional observations from a re-analysis of the deposited data

Results flagged for a closer look

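Single libraries stood apart from the rest of their genotype in 13 of 146 sets of values screened, where chance alone gives about 7.3 (1 in 20). The gap of the extreme library to its nearest neighbour, as a share of the group's range, had to exceed 0.526 for 8 libraries and 0.710 for 5. Among the members, Calcrl in APOE2 had a gap share of 0.650, from 13.6 normalised counts in replicate 1 against 33.3 in the next library. Tie1 in APOE3 had 0.724, from 72.9 in replicate 5 against 24.9. Without APOE2 replicate 1 the log2 fold change of Calcrl was −1.41, and without APOE3 replicate 5 Tie1 fell under the filter on low values.

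In other vascular genes, high values were found in APOE2 replicate 8 for Mcam (gap share 0.579, 1430 normalised counts against 779) and Sema3c (0.664, 69.6 against 29.3), and for the summed junction and surface list (0.567, 254 of 1000000 normalised counts (CPM) against 175). High values were also found for Hey1 in APOE2 replicate 3 (0.727, 8.27 against 2.26) and Ptgs1 in APOE2 replicate 7 (0.583, 31.9 against 13.3). In APOE3, Vegfb was high in replicate 2 (0.745, 1885 against 1366) and Car4 in replicate 3 (0.776, 70.8 against 27.3). Low values were found for Crcp in APOE2 replicate 3 (0.726, 80.0 against 194.2) and for the summed vascular ligands in APOE3 replicate 1 (0.730, 214 CPM against 258). In the lists of other cells, the airway sum was high in APOE2 replicate 2 (0.789, 154.5 CPM against 33.7) and the fibroblast sum in APOE3 replicate 4 (0.839, 236 against 64.8).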

How the results depend on the processing

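Over 25 alternative settings, the 7 members not picked for their pattern gave 170 log2 fold changes, and 0 of them changed direction. Of these, 163 stayed short of the threshold as in the reported fit and 7 passed it. Of all genes, 98 passed, and 9 with no filter on low values, 311 in DESeq2, 204 at a threshold of 0.1 and 0 in limma without the trend, where 1599 had an unadjusted p under 0.05. Of those 7 members, 0 passed, also with no filter and without the trend (6 at an unadjusted p under 0.05 in either), and 4 passed in DESeq2. With the 3 picked genes, whose calls are no test, the counts were 3, 0, 0 and 7. Of the other endothelial genes, 3 passed, and 1 with a pseudocount of 0.5, 5 with a pseudocount of 5, 5 in edgeR, 12 in DESeq2, 6 at a threshold of 0.1, and 0 with no filter or without the trend (32 and 26 at an unadjusted p under 0.05). The causes were not tested. With 1 library left out, the counts ran from 9 to 228 for all genes, from 0 to 5 for the members and from 0 to 9 for the other endothelial genes. The lowest count for all genes came without APOE3 replicate 3 and the highest without APOE3 replicate 1. The replicate number as a block gave 43 genes in all and 1 member, the picked gene Slco2a1. Over all tested genes, same-numbered libraries deviated from their group means with correlations from −0.06 to 0.01. The labels do not say whether same-numbered libraries were handled together. Low read counts limit Tie1 most, with 47 reads over the APOE2 libraries.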
